A study of Mus musculus with 12 samples.

Results

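Bone-marrow-derived macrophages of C57BL6/J mice, called C57BL6 from here on, were compared after 18 h and after 4 h of interleukin-4 (IL-4). The comparison rested on 4 of the 12 arrays of the study, chosen by their labels: 2 replicates at each time. Donor mice were 8 to 12 weeks of age, a sample stands for 2 males and 1 female by its label, and marrow cells of several animals were pooled. Cells were grown in human recombinant CSF1 and given IL-4 at 10 ng/ml, and the 2 untreated (mock) C57BL6 samples were held without it for 18 h. The mock therefore matched the 18 h samples in time, and for the 4 h samples IL-4 and time in culture cannot be told apart. The other 6 arrays held the same 3 groups of Balb/cAnNCrl mice, called Balb/c, and served for the error estimate and for a comparison of strains. The protocol text also describes LPS, but no sample label names it.

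IL-4 binds a receptor whose main signal transducer is the transcription factor STAT6, and macrophages that receive it take on the state called alternative activation. That state is known for arginase, chitinase-like and resistin-like secreted proteins and for fusion into giant cells. Feedback inhibitors of the SOCS family limit the signal. Genes that answer directly are often seen within hours, while others follow later.

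Levels are log2 processed signal minus the 75th percentile of the array, so 0 is the level of a probe at that percentile and each unit is a factor of 2. A gene entered the test if, at 4 h or at 18 h, both arrays had its probe well above background by the scanner software, and 18085 genes did. On the 4 arrays 64.1% to 69.7% of spots were well above background, and the faintest such probe lay at -6.88 to -5.83. Replicates correlated at 0.987 at 4 h and 0.990 at 18 h. Markers of macrophages were well above background on both arrays for 17 of 18 genes at either time, with a summed linear level of 933 to 936 at 4 h and 792 to 877 at 18 h, in units of the 75th percentile. Each sample was a pool, so the p-values measure the spread between pools and not between mice.

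Of the genes tested, 179 (0.990%) differed between the times at a Benjamini-Hochberg adjusted p below 0.05 in limma: 61 (0.337%) were higher at 18 h and 118 (0.652%) were lower. In 55 of the former and 108 of the latter the change was at least 2-fold. The shares of 0.337% higher and 0.652% lower are those to set beside each list count below. The values of the 2 times did not overlap for any of the 179, which were chosen on these same values. Of all genes tested, 24.5% were higher at 18 h without overlap and 25.6% were lower. With the replicate number of each strain as a block, 1298 genes were called, 539 higher and 759 lower, and all 179 were among them. Against this, 0 genes were called when either 18 h array was left out (with 1523 genes at an unadjusted p under 0.05 without replicate 1, and 1353 without replicate 2), 11 without 4 h replicate 1 and 103 without 4 h replicate 2. With no background filter 54 genes were called. Among genes named in the text, that setting ended the calls on Ear1, Dcstamp, Itgb3, Itgax, Timp1, Pdlim1, Jag1, Hmox1, Phlpp1, Ffar2, Socs1, Asb2, Isg20, Ly6a, Ly6c1, Ms4a6b, Ctla2a, Ctla2b, Pilrb1, Pilrb2, Treml4, Fcgr1, Fcrl1, Trim30a, Trim30d, Uba7, Ube2l6 and Herc6. A fit of the 6 C57BL6 arrays alone called 323 genes and ended the calls on Dcstamp, Itgax, Jag1, Serpina3f, Ctla2a, Ctla2b and Uba7. On the slide that held both 18 h arrays and 4 h replicate 2, the median size of the 61 and the 118 changes was 1.84 and 1.48 log2. All 61 and all 118 kept their direction there, which the lack of overlap fixes in advance. These arrays also helped to choose the genes, so this does not test an effect of the slide.

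Placing mock beside both times split the 179 genes into 6 classes. A late rise (37 genes) was higher at 18 h than at 4 h with no call between 4 h and mock, and a further rise (6 genes) had already risen by 4 h. A recovery (18 genes) had fallen by 4 h and was higher again at 18 h. A fade (31 genes) had risen by 4 h and was lower at 18 h, a late fall (85 genes) was lower at 18 h with no call at 4 h, and a further fall (2 genes) had already fallen. Over all genes, 613 (3.39%) were called between 4 h and mock, 294 higher (1.63%) and 319 lower (1.76%), and 798 (4.41%) between 18 h and mock, 311 higher (1.72%) and 487 lower (2.69%). Both steps use the 4 h arrays, so a value that strays there can make a fade or a recovery, and the class sizes are descriptions.

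**Figure D1:**
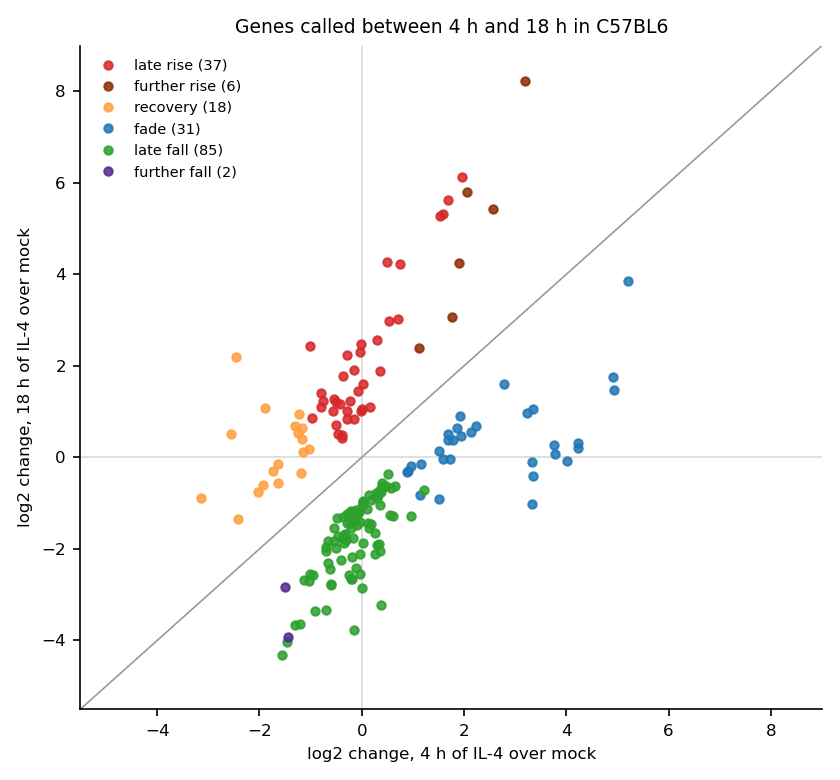
Each point is 1 of the 179 genes called between 4 h and 18 h in C57BL6. The horizontal axis is the log2 change of 4 h over mock, the vertical axis that of 18 h over mock, colours give the class with its gene count, and the diagonal marks no change between the times. The 85 late falls lie below the diagonal, with a median of -0.16 on the horizontal axis. Some of them were already lower at 4 h without a call, such as Treml4 at -1.55 and Pilrb1 at -1.46. The 31 fades lie to the right, most near 0 on the vertical axis.

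Secreted ribonucleases of the eosinophil-associated family rose between the times. Rnase2a, a member of this family, was at -3.69 and -3.73 on the mock arrays, at -0.09 and -0.93 at 4 h and at 4.99 and 4.04 at 18 h. Its change from 4 h to 18 h was 5.02 ± 0.42 log2 (SE), or 32.6-fold (adjusted p = 0.00766). Ear10 was at -4.37 and -4.69 at 4 h and at -0.39 and -0.34 at 18 h, a rise of 4.17 ± 0.44 (adjusted p = 0.00766). For both genes the 18 h arrays were far above the 4 h arrays, and Ear10 was not well above background in mock. Ear1 rose by 3.96 ± 0.55 (adjusted p = 0.0208) and Ear6 by 3.72 ± 0.35 (adjusted p = 0.00766). These genes are near-identical copies of each other, so a probe may read several of them and their separate values are uncertain. Ear1 is also in the list of eosinophil markers, whose summed linear level was 0.375 to 0.485 at 4 h and 1.33 to 1.39 at 18 h. Of that list's 7 genes on the array, 4 were well above background on both 4 h arrays and 5 on both 18 h arrays. Epx, the eosinophil peroxidase gene, and Il5ra, the IL-5 receptor gene, were not on any of the 4. Prg3 was not on either 4 h array but was at 18 h. Of the list's 5 genes tested, 4 lay above 0 and 1 below, with a median of 0.65, and only Ear1 was called. The others were Prg3 (1.83), Siglecf (0.65), Ccr3 (0.04) and Prg2 (-0.33). In RNA of a whole culture, more cells of a kind and more RNA per cell cannot be told apart.

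Genes of macrophage fusion were among the late and further rises. Ocstamp, which encodes a membrane protein needed for the fusion of macrophages and osteoclasts, was at -2.14 and -1.80 in mock, -1.66 and -1.31 at 4 h and 2.04 and 2.58 at 18 h. It rose by 3.79 ± 0.33 log2, or 13.9-fold (adjusted p = 0.00766). Dcstamp, its relative with the same role, was at 0.07 and 0.75 at 4 h and at 2.28 and 2.69 at 18 h (2.07 ± 0.37, adjusted p = 0.0497). The 4 h values of both genes lay close to mock. Itgb3, the integrin beta chain of the vitronectin receptor, was at 0.88 and 0.86 in mock, 2.50 and 2.75 at 4 h and 4.01 and 3.87 at 18 h (1.31 ± 0.17 from 4 h, adjusted p = 0.0157). It had thus risen at both steps. These were the 3 of 16 fusion genes that passed the test, with 0 lower and a list median of 0.10 against -0.01 over all genes. Among the others, Atp6v0d2 differed by 2.18 ± 0.74 (adjusted p = 0.294, or 0.00326 with the replicate block), Acp5 by 0.59 (adjusted p = 0.825) and Cdh1, already far above mock at 4 h, by -0.61 (adjusted p = 0.795). The call on Dcstamp was lost under median scaling, with the slide as a block and on the deposited ratios. That on Itgb3 was lost on the deposited ratios, where another of its probes was used and gave 0.79.

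Matrix and adhesion genes gave further late rises. Fn1, which encodes fibronectin, was at -5.12 and -6.28 in mock, -3.81 and -4.40 at 4 h and -0.30 and -0.48 at 18 h. The step from 4 h was 3.71 ± 0.39 log2, or 13.1-fold (adjusted p = 0.00766). Plaur, the receptor of urokinase, was at 2.57 and 2.67 at 4 h, below mock, and at 4.43 and 4.61 at 18 h (1.90 ± 0.22, adjusted p = 0.00988). Timp1, an inhibitor of matrix metalloproteinases, rose by 1.46 ± 0.19 (adjusted p = 0.0157), a call lost on the deposited ratios, where another probe was used. They were the 3 of 21 matrix genes called, with 0 lower and a list median of 0.19. Itgax, which encodes the integrin CD11c, was at 2.98 and 3.52 at 4 h and at 5.51 and 5.64 at 18 h (2.33 ± 0.39, adjusted p = 0.0402), a call lost under median scaling. Of 19 integrin and adhesion genes, 3 were higher and 0 lower: Itgax, Itgb3 and Jag1.

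Other late and further rises had diverse roles. Slc7a11, the cystine importer that feeds glutathione synthesis, was at -6.65 and -6.49 at 4 h, with 1 of 2 arrays well above background, and at -4.24 and -4.20 at 18 h (2.35 ± 0.20, adjusted p = 0.00766). This call was lost with the normexp background correction, which gave 0.80. Wwc1, an upstream member of the Hippo pathway, rose by 2.43 ± 0.31 (adjusted p = 0.0157) and Fhdc1, a formin, by 2.20 ± 0.28 (adjusted p = 0.0157). Pdlim1, a cytoskeletal adaptor, rose at both steps, from -2.34 and -2.37 in mock to -0.67 and -0.22 at 4 h and 1.67 and 2.11 at 18 h (2.34 ± 0.36 from 4 h, adjusted p = 0.0313). The call between the times was lost under median scaling.

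The best known IL-4 effector genes did not all pass between the times. Of 21 on the list, 3 were higher (Fn1, Itgax and Rnase2a) and 0 lower, with a list median of 0.72. Retnla, a resistin-like secreted protein, was not well above background in mock, was at 2.23 and 2.99 at 4 h and at 7.39 and 7.12 at 18 h, a difference of 4.65 ± 1.20 (adjusted p = 0.15). Arg1, arginase, stood at 1.78 and 2.07 at 4 h and at 4.51 and 3.82 at 18 h (2.24 ± 0.45, adjusted p = 0.0755). Chil3, a chitinase-like protein, stood at 2.52 and 1.54 and then at 5.71 and 4.79 (3.22 ± 0.59, adjusted p = 0.0527). In each of these 3 genes the 18 h arrays lay above the 4 h arrays, and the difference did not pass the test. With the replicate block Retnla (adjusted p = 0.0383) and Chil3 (adjusted p = 0.00489) passed and Arg1 did not (adjusted p = 0.0507), and all 3 passed with normexp and with array weights. Ccl24, an eosinophil-attracting chemokine, differed by 0.77 ± 1.01 (adjusted p = 0.882).

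**Figure D2:**
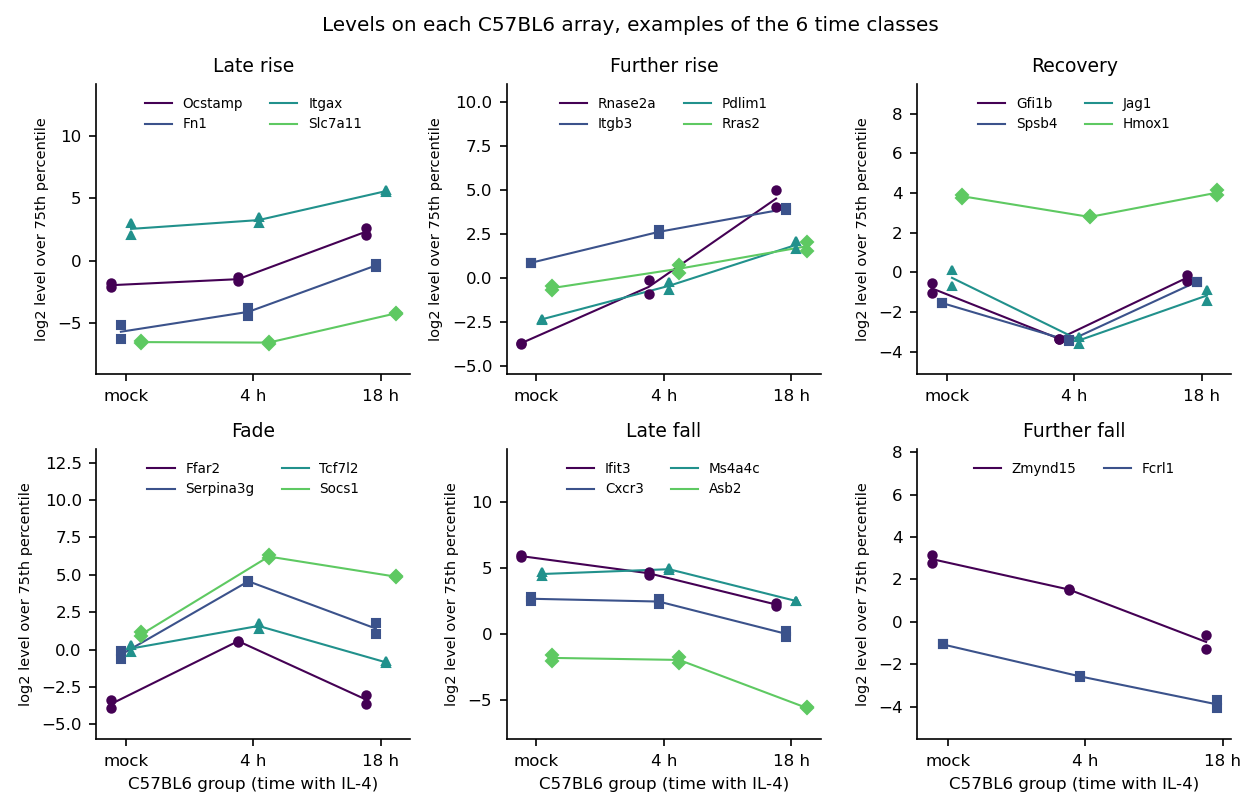
Points are the log2 levels on each of the 6 C57BL6 arrays (2 per group, relative to the 75th percentile of the array), lines join group means, and each panel shows 2 to 4 genes of 1 class. Ocstamp stays between -2.14 and -1.31 in mock and at 4 h and lies above 2 on both 18 h arrays, while Ffar2 is above 0 at 4 h and below -3 on the other arrays.

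Recoveries had fallen by 4 h and were higher again at 18 h. Against mock their median was -1.64 at 4 h and 0.15 at 18 h. Between 18 h and mock 16 of the 18 were not called, which does not show that they were equal. Of all genes tested only 4.41% were called in that comparison. Fzd1, a receptor of Wnt ligands, was at -4.0 and -4.50 in mock, was not well above background on either 4 h array, and was at -1.93 and -2.20 at 18 h. It was at least 19.6-fold higher at 18 h than at 4 h (adjusted p = 0.00766), a bound measured, on each 4 h array, from the faintest probe well above background or from the gene's own signal where that was higher. With the normexp background correction, which adds an offset before the log, the fitted change was 2.55 log2 and was still called. At 18 h it stood 2.19 log2 above mock (adjusted p = 0.0431). Gfi1b, a transcriptional repressor of blood cell development, was at -1.06 and -0.54 in mock, -3.34 and -3.35 at 4 h and -0.42 and -0.14 at 18 h (3.07 ± 0.38 from 4 h, adjusted p = 0.0146). Spsb4, which encodes a SOCS-box protein, was at -1.52 and -1.56 in mock, -3.47 and -3.42 at 4 h and -0.46 and -0.49 at 18 h (2.97 ± 0.30, adjusted p = 0.00766). In both genes the 4 h arrays were the low ones and the 18 h arrays lay above mock.

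Jag1, a ligand of Notch receptors, was at -0.68 and 0.13 in mock, -3.59 and -3.25 at 4 h and -1.45 and -0.88 at 18 h (2.26 ± 0.37, adjusted p = 0.0391). Its 18 h values lay between the other groups, and the call was lost with the slide as a block. Grk5, a kinase of G-protein-coupled receptors, rose by 1.80 ± 0.17 from 4 h (adjusted p = 0.00766), Rassf8 by 1.99 ± 0.19 (adjusted p = 0.00766) and Phlpp1, a phosphatase that acts on Akt, by 1.46 ± 0.21 (adjusted p = 0.0229). Hmox1, haem oxygenase, was at 3.91 and 3.77 in mock, 2.82 and 2.77 at 4 h and 4.14 and 3.90 at 18 h (1.22 ± 0.14, adjusted p = 0.0108). The calls on Hmox1 and Phlpp1 were lost under median scaling. With Slc7a11, Hmox1 made 2 of 19 genes of the oxidative stress response higher, with 0 lower and a list median of 0.03.

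Fades had risen by 4 h and were lower at 18 h. Against mock their median was 2.13 at 4 h and 0.27 at 18 h. Between 18 h and mock 27 of the 31 were not called, which does not show that they were equal. Of all genes tested only 4.41% were called in that comparison. Gata3, a transcription factor known from T helper 2 cells, was at -6.37 and -5.74 in mock, at -1.75 and -1.92 at 4 h and not well above background on either 18 h array. It was at least 16.1-fold lower at 18 h than at 4 h (adjusted p = 0.00781), a bound set by its own 18 h signals of -5.79 and -5.90, which lay above the faintest probe well above background. With normexp the fitted change was -2.28 log2, still called. Kalrn, a guanine nucleotide exchange factor, followed the same course, at -2.08 and -2.17 at 4 h and at least 18.1-fold lower at 18 h (adjusted p = 0.0148). With normexp its fitted change was -2.16, also called. Ffar2, the receptor of short-chain fatty acids, was at -3.36 and -3.93 in mock, 0.61 and 0.53 at 4 h and -3.01 and -3.64 at 18 h. It fell by 3.90 log2 (SE 0.55, adjusted p = 0.0219), and its 18 h values overlapped mock.

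The protease inhibitor genes Serpina3f and Serpina3g, neighbours in the genome, faded together. Serpina3f was at 0.05 and -0.13 at 4 h and at -2.96 and -4.03 at 18 h (-3.45 ± 0.47, adjusted p = 0.0188). Serpina3g was at -0.07 and -0.60 in mock, 4.55 and 4.59 at 4 h and 1.80 and 1.02 at 18 h (-3.16 ± 0.37, adjusted p = 0.0105), still above mock at 18 h (1.75, adjusted p = 0.0373). They are close paralogs, and cross-reading between their probes was not tested. Tcf7l2, the transcription factor at the end of the Wnt pathway, rose from -0.15 and 0.30 in mock to 1.36 and 1.81 at 4 h and was at -0.92 and -0.78 at 18 h (-2.43 ± 0.23, adjusted p = 0.00766). Chst7, a sulfotransferase, returned from 3.75 and 3.84 at 4 h to 1.89 and 2.16 at 18 h, against 1.97 and 2.17 in mock (-1.77 ± 0.20, adjusted p = 0.00988). The splicing regulator gene Hnrnpll (-1.58 ± 0.15, adjusted p = 0.00766) and the sugar-phosphate transporter gene Slc37a2 (-1.97 ± 0.21, adjusted p = 0.00766) fell as well. On the deposited ratios, which here came from another probe, Hnrnpll gave -0.64 and was not called.

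Among the genes of IL-4 receptor signalling and feedback, 1 of 16 was called lower and 0 higher, with a list median of -0.43. Of all genes tested 0.652% were called lower. Socs1, an inhibitor of JAK kinases, was at 0.89 and 1.15 in mock, 6.13 and 6.32 at 4 h and 4.91 and 4.84 at 18 h. It fell by 1.35 from 4 h (SE 0.19, adjusted p = 0.0231) and stayed 3.85 above mock (adjusted p = 1.66e-04). Its call between the times was lost under median scaling. Il4ra, the IL-4-binding chain of the receptor, was at 2.64 and 2.53 in mock, 4.18 and 4.57 at 4 h and 2.87 and 2.30 at 18 h. That difference of -1.79 ± 0.32 just missed the threshold (adjusted p = 0.0504) and passed with the replicate block (adjusted p = 0.0275). Cish, a further SOCS-family inhibitor, was at 3.95 and 3.88 at 4 h and at 3.22 and 2.50 at 18 h (-1.05 ± 0.84, adjusted p = 0.755). Of the transcription factors of IL-4 priming, 0 of 19 were called between the times, with a list median of -0.01. Of all genes tested 0.990% were called, so a count of 0 is near that share and is no result about these factors. Egr2 stood at 5.53 and 6.05 and then at 5.68 and 5.89 (-0.01 ± 0.48, adjusted p = 0.998) and Irf4 at 0.99 and 1.13 and then at 0.40 and 0.71 (-0.51 ± 0.55, adjusted p = 0.849), both still above mock at 18 h (adjusted p = 0.00432 and 0.00994). Myc (-0.39 ± 1.17, adjusted p = 0.975) and Pparg (0.75 ± 0.27, adjusted p = 0.339) did not pass either.

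The 85 late falls held many genes of the interferon response. Of 33 interferon response genes tested, 10 were called lower at 18 h than at 4 h and 0 higher, and the list's median was -1.25. Of all genes tested 0.652% were called lower. Every one of the 33 lay below 0 and had 18 h values under both 4 h values, against 25.6% of all genes tested. This direction of all 33 was the same with normexp, quantile normalization, median scaling, the slide as a block and the deposited ratios. At 4 h the list had 0 higher and 1 lower than mock (median -0.28), and at 18 h 0 higher and 26 lower (median -1.45). Over all genes tested 1.76% were called lower than mock at 4 h and 2.69% at 18 h. With the replicate block 27 were called lower between the times, and 0 when 4 h replicate 1 or either 18 h array was left out.

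Ifit3, an interferon-induced protein that binds the related antiviral proteins, was at 5.97 and 5.82 in mock, 4.73 and 4.47 at 4 h and 2.12 and 2.35 at 18 h. It fell by 2.37 from 4 h (SE 0.29, adjusted p = 0.0145). Ifit2, a neighbouring gene of the same family, was at 3.23 and 2.87 at 4 h and at 0.95 and 0.76 at 18 h (-2.19 ± 0.22, adjusted p = 0.00766). The Ifit2 call was lost on the deposited ratios, where another probe was used. Irf7, the transcription factor that amplifies type I interferon, was at 4.03 and 3.82 in mock, 4.55 and 4.52 at 4 h and 2.72 and 2.57 at 18 h (-1.88 ± 0.23, adjusted p = 0.0145). Zbp1, a sensor of unusual nucleic acids, was at 5.30 and 5.32 at 4 h, as in mock, and at 3.41 on both 18 h arrays (-1.90 ± 0.19, adjusted p = 0.00766). Ifi44 fell by 2.15 (SE 0.27, adjusted p = 0.0157). Among list members that did not pass were Isg15 (-2.0, adjusted p = 0.0874) and Cxcl10 (-2.03, adjusted p = 0.194), and Isg15 was picked after its values were seen. Both passed with the replicate block (adjusted p = 0.00308 for Isg15 and 0.0295 for Cxcl10).

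Iigp1, an immunity-related GTPase of the family that acts on vacuoles with intracellular microbes, was at 2.72 and 2.40 at 4 h and at 0.83 and 0.34 at 18 h (-1.98 ± 0.25, adjusted p = 0.0157). Igtp, of the same family and also picked afterwards, was at 5.42 and 5.30 and then at 3.72 and 3.84 (-1.58 ± 0.14, adjusted p = 0.00766). Irgm1 of that family, likewise picked afterwards, did not pass (-0.95, adjusted p = 0.0531, or 0.00897 with the replicate block). Chosen after their values were seen, Irgm2, next to Igtp in the genome, fell by 1.5 (SE 0.17, adjusted p = 0.00969), Tgtp1 by 1.83 (SE 0.19, adjusted p = 0.00766) and the guanylate-binding protein gene Gbp6 by 2.31 (SE 0.26, adjusted p = 0.00983). Enzymes that attach the ubiquitin-like protein ISG15 were also late falls and were likewise singled out after the fact: Uba7 (-0.94 ± 0.16, adjusted p = 0.0426), Ube2l6 (-1.37 ± 0.17, adjusted p = 0.0148) and Herc6 (-1.37 ± 0.19, adjusted p = 0.0212). On the deposited ratios another probe was used for Tgtp1, which gave -1.12 and was not called. The call on Irgm2 was lost under median scaling. The call on Uba7 was lost with quantile normalization, under median scaling and on the deposited ratios.

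**Figure D3:**
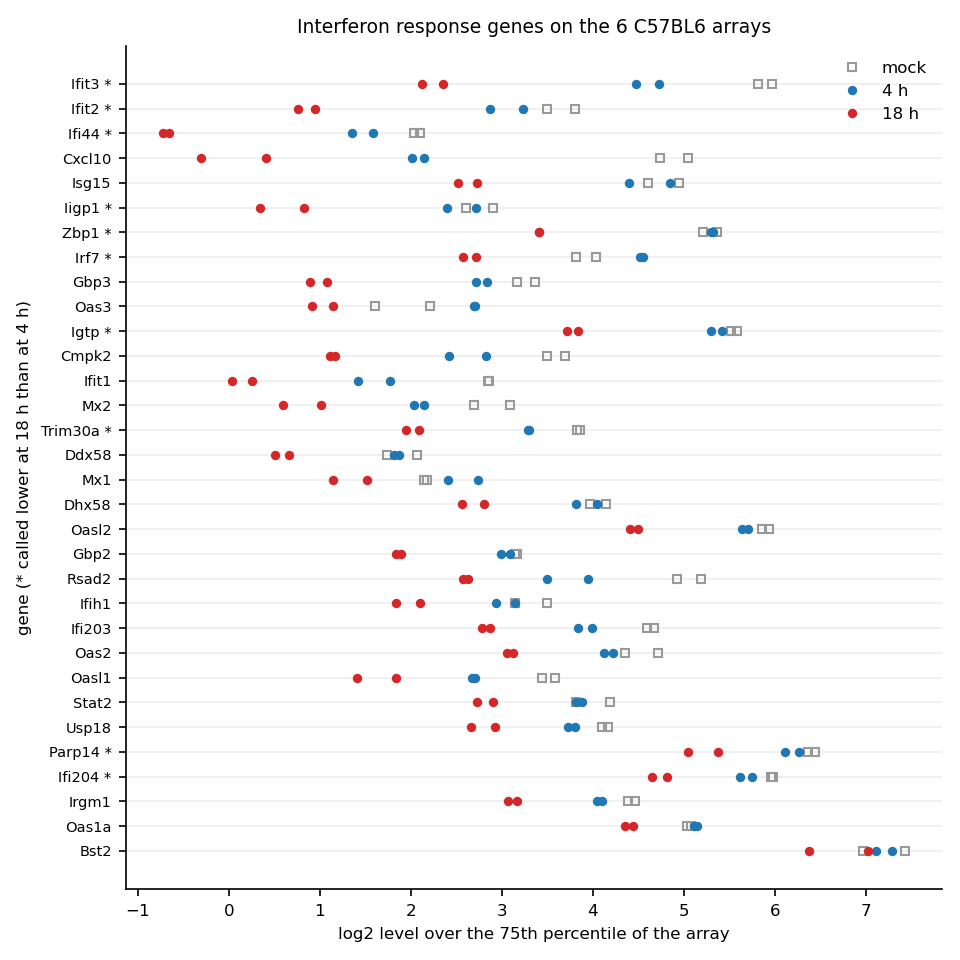
Each line is 1 of 32 of the 33 interferon response genes, and points are its log2 levels on the 2 mock, 2 4 h and 2 18 h arrays of C57BL6, with an asterisk for the 10 genes called lower at 18 h than at 4 h. On every line the 18 h points lie left of both 4 h points.

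Promoters of the late falls were read from RefSeq (GRCm38.p6), as the 250 bases before and the 50 after each gene's start, and 63 of the 85 genes matched an entry. A gene with several promoter entries counted if any of them held the letters searched. The letters GAAANNGAAA on either strand, the core of the interferon-stimulated response element, were found for 15 of the 63 genes (23.8%). Of all genes tested that had a promoter entry 3.8% held them (438 of 11528), and of all genes with an entry 4.0%. They were found for 2 of 19 fades, Socs1 and Pdlim5, and for 0 of 26 late rises and 0 of 13 recoveries. Other motifs searched on both strands were TTCNNNNGAA, bound by STAT6, in 6 of 63 late falls (9.5%, against 6.7% of genes tested) and TTCNNNGAA, bound by other STAT proteins, in 8 (12.7%, against 8.4%). TGACGTCA was in 0 of the 63 (against 3.3%), CACGTG in 3 (4.8%, against 10.9%) and CCAAT in 21 (33.3%, against 42.4%). A match is a run of letters and not a shown site, and the array data do not test binding. Promoters of 4 late falls are printed to show where these letters lie, 5′ to 3′ on the strand of the gene. GAAANNGAAA or its reverse complement is in capitals, and the entry printed for a gene is one with a match. Ifit3 and Igtp are list members, Tgtp1 is a GTPase gene and Pilrb1 a paired receptor gene. Pilrb1 does not stand for the receptors called lower, since Treml4 and Fcgr1 held no match.
Ifit3 promoter, chr19:34583279-34583578, plus strand: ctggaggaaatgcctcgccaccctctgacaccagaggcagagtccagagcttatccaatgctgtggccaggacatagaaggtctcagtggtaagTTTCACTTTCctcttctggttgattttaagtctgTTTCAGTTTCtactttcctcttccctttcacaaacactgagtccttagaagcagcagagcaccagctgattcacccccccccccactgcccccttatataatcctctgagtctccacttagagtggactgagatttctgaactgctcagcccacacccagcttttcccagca
Igtp promoter, chr11:58199306-58199605, plus strand: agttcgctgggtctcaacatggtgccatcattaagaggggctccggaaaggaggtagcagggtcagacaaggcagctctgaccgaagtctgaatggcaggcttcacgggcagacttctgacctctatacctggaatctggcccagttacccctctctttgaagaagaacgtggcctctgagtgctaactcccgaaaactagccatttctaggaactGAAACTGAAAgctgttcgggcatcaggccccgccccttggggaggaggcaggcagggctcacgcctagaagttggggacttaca
Tgtp1 promoter, chr11:48992197-48992496, minus strand: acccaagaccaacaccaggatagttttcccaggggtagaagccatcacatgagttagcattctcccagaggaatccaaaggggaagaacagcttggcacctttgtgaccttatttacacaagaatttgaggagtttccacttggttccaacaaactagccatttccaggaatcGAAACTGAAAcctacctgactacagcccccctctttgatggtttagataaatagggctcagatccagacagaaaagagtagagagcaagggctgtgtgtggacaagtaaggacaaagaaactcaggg
Pilrb1 promoter, chr5:137858000-137858299, minus strand: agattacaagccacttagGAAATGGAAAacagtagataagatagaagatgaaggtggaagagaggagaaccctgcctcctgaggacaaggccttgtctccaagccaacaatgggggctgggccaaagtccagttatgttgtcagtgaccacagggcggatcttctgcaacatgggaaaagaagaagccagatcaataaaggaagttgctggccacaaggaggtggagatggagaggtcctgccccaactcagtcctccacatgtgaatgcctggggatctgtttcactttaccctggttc

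Genes of cell-surface families were among the late falls. Ms4a4c, a tetraspan membrane protein gene, was at 4.72 and 4.36 in mock, 4.96 and 4.85 at 4 h and 2.47 and 2.52 at 18 h (-2.41 ± 0.24, adjusted p = 0.00766). Ms4a4d fell by 2.39 (SE 0.25, adjusted p = 0.00766). Ly6a, a GPI-anchored protein gene known as the stem cell antigen Sca-1, was at 4.11 and 4.26 at 4 h and at 1.52 and 1.85 at 18 h (-2.50 ± 0.36, adjusted p = 0.0242). In the RefSeq order, with at most 1 protein-coding gene between, 19 of the 78 late falls that could be placed (24.4%) lay beside another called gene, against 419 of 13973 genes tested (3%). Sets of related genes among them were Ly6i with Ly6a and Ly6c1, Ms4a4c with Ms4a4b, Ms4a6b with Ms4a4d, Pilrb1 with Pilrb2, Ctla2a with Ctla2b, Trim30a with Trim30d, Igtp with Irgm2 and Ifit2 with Ifit3. Probes of such relatives can read each other's transcripts, which was not tested.

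Of 21 Fc and paired receptors, 3 were called lower and 0 higher, with a list median of -0.97. Pilrb1, an activating paired receptor, was at 2.86 and 2.75 in mock, 1.62 and 1.07 at 4 h and -1.15 and -1.29 at 18 h (-2.57 ± 0.39, adjusted p = 0.0312). Treml4, a receptor of the TREM family, was at -1.24 and -1.51 and then at -3.91 and -4.37 (-2.76 ± 0.45, adjusted p = 0.0387), a call lost with the slide as a block. Fcgr1, the high-affinity receptor of IgG, was at 6.65 and 6.54 and then at 5.05 and 5.19 (-1.48 ± 0.25, adjusted p = 0.04), a call lost under quantile normalization. Among the list's inhibitory members, Fcgr2b (-0.87, adjusted p = 0.298), Pirb (-0.19, adjusted p = 0.81) and Pilra (-2.64, adjusted p = 0.0972) did not pass. They were picked after their values were seen and do not stand for all inhibitory members. Fcgr2b was still above mock at 18 h (1.78, adjusted p = 0.0153). With the replicate block Pilra (adjusted p = 0.00507) and Fcgr2b (adjusted p = 0.0477) were called lower. Cxcr3, a receptor of interferon-induced chemokines, was at 2.52 and 2.82 in mock, 2.27 and 2.65 at 4 h and 0.26 and -0.23 at 18 h (-2.44 ± 0.23, adjusted p = 0.00766). It was the 1 of 17 chemoattractant receptors called, against 0.990% of all genes tested.

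Further late falls lay outside these families. Asb2, a substrate receptor of an E3 ubiquitin ligase, was at -2.17 and -1.74 at 4 h and at -5.62 and -5.54 at 18 h (-3.62 ± 0.50, adjusted p = 0.0193), or -2.25 with normexp, still called. Isg20, an exonuclease induced by interferon, was at 3.23 and 3.43 and then at 0.42 and 0.53 (-2.86 ± 0.47, adjusted p = 0.0385). Sucnr1, the receptor of succinate, was at -4.48 and -5.16 at 4 h and not well above background at 18 h, at least 2.97-fold lower (adjusted p = 0.00766), a call lost with normexp. In 74 of the 85 late falls the 18 h level was also called below mock, against 2.69% of all genes, but both comparisons use the 18 h arrays. The 2 further falls were Zmynd15, at 2.78 and 3.15 in mock, 1.51 and 1.54 at 4 h and -0.61 and -1.29 at 18 h (-2.47 ± 0.24 from 4 h, adjusted p = 0.00766), and Fcrl1, a gene of the Fc receptor-like family, which fell by 1.32 (SE 0.19, adjusted p = 0.0248). The Fcrl1 call was lost under median scaling and with the slide as a block.

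Several lists moved by small amounts with no gene called between the times. All 24 genes of ribosome biogenesis lay below 0 (median -0.54, from Rrp12 at -0.82 to Npm1 at -0.07), after a median of 0.80 at 4 h over mock, and 51.1% of all genes tested lay below 0. With the replicate block 4 of the 24 were called lower, and with the slide as a block 23 lay below 0. Of 30 DNA replication genes 29 lay above 0 (median 0.38, up to Ung at 1.22), after a median of -0.74 at 4 h over mock, and 30 genes of mitosis had a median of -0.01. Of 23 genes of cholesterol synthesis and uptake 22 lay above 0 (median 0.44, up to Hmgcs1 at 0.78), or 20 with the slide as a block, where the median was 0.18. Of 24 respiratory chain genes 22 lay above 0 (median 0.23).

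**Figure D4:**
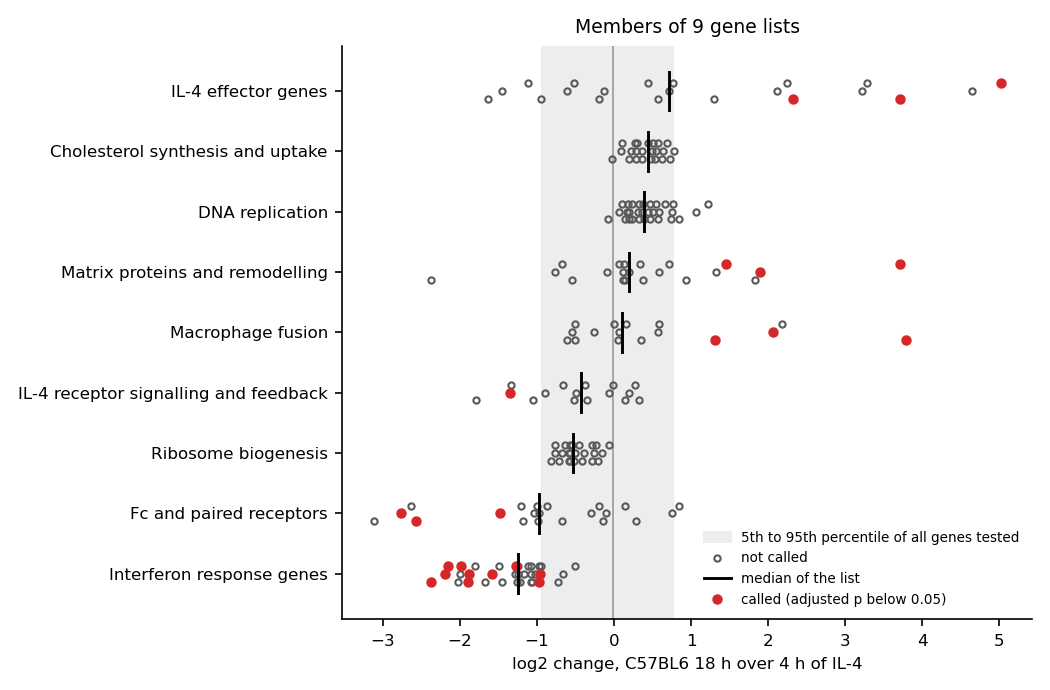
Points are the log2 changes of 18 h over 4 h for the genes of 9 lists, filled red where called, black bars are list medians, and the grey band is the 5th to 95th percentile of all genes tested (-0.94 to 0.76). The interferon list has its median at -1.25 and the Fc and paired receptors at -0.97, both left of the band, and the other medians lie inside it.

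The same comparison in Balb/c macrophages used arrays that had no part in choosing the 179 genes, apart from the shared error estimate. In Balb/c 159 genes (0.879%) were called, 42 (0.232%) higher and 117 (0.647%) lower. Of the 61 genes higher in C57BL6, 22 were called higher in Balb/c and 59 had the same sign. Of the 118 lower genes 72 were called lower and 113 had the same sign, with 0 called the opposite way in either case. Over all genes tested 45.0% lay above 0 in Balb/c and 55.0% below. By class, 60 of the 85 late falls were called the same way in Balb/c, 13 of the 37 late rises, 10 of the 31 fades and 4 of the 18 recoveries. Rnase2a rose by 5.24 log2 there (adjusted p = 0.0054), Ifit2 fell by 3.27 (adjusted p = 0.00532) and Gata3 fell by 3.46 (adjusted p = 0.0139).

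The difference of the step between strains was tested for every gene, and 0 genes (0%) passed, with 513 at an unadjusted p under 0.05. Calls in one strain alone are therefore not shown to differ between strains. The smallest adjusted p was that of Sucnr1 (strain difference -3.80 ± 0.35 log2, adjusted p = 0.0752), which was not well above background on any Balb/c array, so that its change there was not measured. Ffar2 was at -1.70 and -1.46 at 4 h and -2.74 and -1.70 at 18 h in Balb/c, where it differed by -0.64 (adjusted p = 0.8), and its strain difference was -3.26 ± 0.78 (adjusted p = 1). Ocstamp rose by 3.79 log2 in C57BL6 and by 1.88 in Balb/c, where its adjusted p fell just under the threshold and rounded to 0.05.

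**Figure D5:**
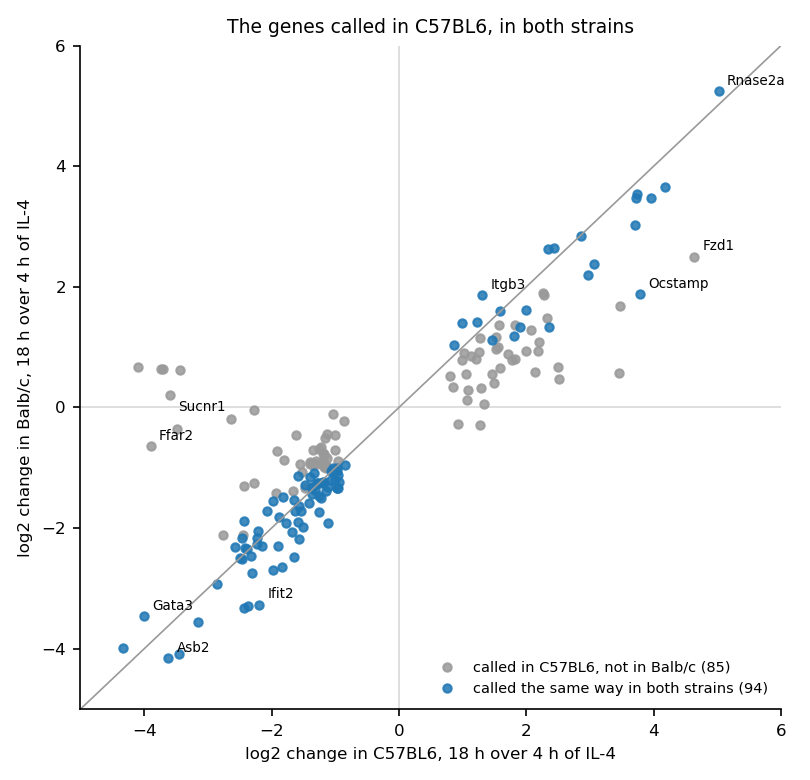
Each point is 1 of the 179 genes called in C57BL6, with its log2 change of 18 h over 4 h in C57BL6 on the horizontal axis and in Balb/c on the vertical axis, and blue marks the 94 genes called the same way in both strains. The diagonal marks equal changes, Rnase2a lies near it, and Ffar2 and Sucnr1 lie near 0 on the Balb/c axis.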

How the data were processed

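Per the file headers, the deposited scanner files give an intensity for every spot of 1-colour Cy3 arrays, the processed green signal. The submitters' processing notes name Agilent Feature Extraction, version 9.5.1.1. The authors' deposited value table holds linear ratios, whose denominator is not stated and which match the processed signal divided by the average of both C57BL6 mock arrays (SD of the log2 difference at most 0.00468 over 21240 bright probes, column medians 0.936 to 1.132). It served as an alternative only.

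Control spots and spots marked as outliers were left out, spots of a probe were averaged on the log2 scale, and each array was scaled by subtracting its 75th percentile. Of 41174 probes, 26862 were kept: those well above background on both arrays of C57BL6 at 4 h or at 18 h. Of these, 17380 were named by accession, 3881 by current and 1830 by older symbol through RefSeq GRCm38.p6, and 3771 kept the name in the file. The kept probe with the highest mean stood for a gene. Of 68 called genes with further kept probes, 2 (Kcnq1 and Plec) had one of opposite sign. In a fit of every kept probe, 45 of the 100 further probes of these genes were called. Among those not called were probes of Fn1 (2.29), Itgax (1.08), Itgb3 (0.79), Slc7a11 (1.10), Ifi44 (-1.31), Ly6c1 (-1.15) and Pilrb2 (-1.12). Each of these changes was smaller than that of the probe tested.

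Means of the 6 groups were fitted over all 12 arrays in limma 3.58.1 (R 4.3.3, data.table, version 1.17.8; 6 residual and 2.07 prior degrees of freedom), with Benjamini-Hochberg adjustment over 18085 genes and a threshold of 0.05. The procedure was tested on simulated data. The series text describes 2 experiments with littermates of their own, without saying that the replicate number is the experiment. Deviations of same-numbered C57BL6 samples correlated at 0.65 between mock and 4 h, 0.30 between mock and 18 h and 0.18 between 4 h and 18 h. In Balb/c the same pairs of groups gave 0.51, 0.32 and 0.67. The main fit left the numbers out, so its tests are unpaired. Only the replicate block took them as pairs within strains. Replicates shared a slide in C57BL6 at 18 h and in Balb/c mock, and lay on different slides in the other groups. The values 0.65 and 0.67 join groups whose replicates were split over the same slides, so pairing and slide cannot be told apart there.

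Members and gene lists were chosen with earlier results of these data known. Genes are named if called with the most extreme changes among those well above background on all 4 arrays (up to 15 a side), by bound (6), in a time class (8), in a list (6, called first) or in the strain difference (6), besides Arg1, Retnla, Chil3, Ccl24, Irf4, Il4ra, Socs1, Cish, Myc, Egr2 and Pparg. Igtp, Isg15, Irgm1, Fcgr2b, Pirb, Pilra, Irgm2, Tgtp1, Gbp6, Uba7, Ube2l6, Herc6 and the genes named only as genome neighbours, for a motif or as extremes of a list were named after their values were seen. In the interferon list, 1 gene is counted but not reported here on its own. The alternatives were other background corrections, scalings, filters, probes, blocks and arrays.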

Additional observations from a re-analysis of the deposited data

How the results depend on the processing

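All 179 genes kept their direction in each alternative that gave them a value, or 178 of them did (normexp, no background filter, the deposited ratios and without 18 h replicate 1). With 1 of the 4 arrays left out, the lack of overlap fixes the direction of a probe in advance. Of the 179 calls, 162 remained with quantile normalization, 150 with normexp, 129 with the slide as a block and 96 under median scaling.

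The number of calls moved more, and the cause was not tested. Between 18 h and 4 h, 179 became 273 with normexp, 104 with median scaling, 54 with no background filter (27670 genes tested), 1298 with the replicate block, 947 with array weights, 323 on only the 6 C57BL6 arrays and 11 on only the 4 compared (3202 at an unadjusted p under 0.05), and 0 to 103 with 1 array left out. Between 4 h and mock, 613 became 379 with median scaling, 300 with no filter, 3106 with the replicate block, 1029 with array weights, 1070 on the C57BL6 arrays and 168 to 209 with 1 array left out. Between 18 h and mock, 798 became 468 with no filter, 3223 with the replicate block, 1291 with array weights, 1203 on the C57BL6 arrays and 228 to 356 with 1 array left out. In Balb/c, 159 became 92 with median scaling, 50 with no filter, 1062 with the replicate block, 245 with the slide block, 73 with array weights and 0 to 109 with 1 array left out. The strain difference gave 0 calls, 1 with the slide block, and 0 to 5 with 1 array left out.

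With normexp the late rises numbered 64, recoveries 28 and further falls 15, and with quantile normalization further falls numbered 4. With the replicate block there were 256 late rises, 44 further rises, 239 recoveries, 211 fades, 437 late falls and 111 further falls, and on the C57BL6 arrays 77, 17, 35, 50, 131 and 13. Leaving out 1 array gave 0 to 31 late rises, 0 to 3 further rises, 0 to 3 recoveries, 0 to 50 fades, 0 to 55 late falls and 0 further falls. Normexp placed the median background of the array under spots whose own background was marked as an outlier, a choice made after seeing the data. The strength of signal over background limits Slc7a11, Sucnr1, Fzd1, Gata3 and Kalrn, and the 2 arrays a group limit every call.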
